A study of Homo sapiens with 12 samples.

Results

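The plasminogen activators, their receptor and a pair of their serpin inhibitors were described in 12 RNA-seq libraries of MDA-MB-231 and of Hs-578T cells, both established lines from triple-negative breast cancer (TNBC). The 5 genes, PLAU, PLAT, PLAUR, SERPINE2 and SERPINB2, were taken by name from the 32152 genes of the table, and each had 1 entry, listed as protein coding. All 5 were among the 13737 protein-coding genes tested, those reaching 0.5 RPKM in 2 or more libraries. RPKM is the number of reads on a gene divided by the length of its model and by the total of the library.

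Plasmin is the broad protease that dissolves fibrin and cleaves matrix proteins such as fibronectin and laminin, and it circulates as the inactive plasminogen. PLAU encodes urokinase (uPA) and PLAT encodes tissue plasminogen activator (tPA), the serine proteases that cut plasminogen to plasmin. PLAUR encodes uPAR, a receptor anchored to the membrane by a lipid, which holds uPA at the cell surface. SERPINE2 encodes protease nexin-1, an inhibitor of thrombin, uPA and plasmin, and SERPINB2 encodes plasminogen activator inhibitor type 2 (PAI-2). Serpins trap their target protease by a cleaved loop, and this system is widely studied in breast cancer invasion.

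There were 3 groups in each line, parental controls, ERK5-ko and MEK5DD, with 2 libraries in every group. The ERK5-ko cells were made with CRISPR/Cas9 guides against exons of MAPK7, the gene of ERK5. The MDA-MB-231 ERK5-ko cells come from 1 surviving clone, whereas several Hs-578T clones were grown and the one sequenced is not named in the sources used here. MEK5DD is an active form of MEK5, the kinase directly upstream of ERK5, and how it was introduced is not given in the sources used here. RNA was taken from cultured cells short of confluence, and no vector-only group was sequenced. Passage labels were 29 and 30 for MDA-MB-231 parental controls, 7 and 8 for ERK5-ko and 10 and 11 for MEK5DD. They were 83 and 84 for Hs-578T parental controls, and 8 and 9 for both ERK5-ko and MEK5DD. A difference from parental controls can thus belong to passage, to genotype or to how the cells were made, which cannot be told apart. For ERK5-ko the making included transfection, sorting and cloning, and for MEK5DD its steps are not given. The paper made its ERK5-ko lines from cells at higher passages than the ERK5-ko labels. What these labels count from is not given in the sources used here. Nothing states that the replicates were separate cultures, so p values measure the spread between these libraries only.

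Library totals, recovered from the RPKM values, lay between 20248162 and 27791195 reads. MAPK7 RNA was not lower in libraries labelled ERK5-ko, with a log2 fold change of 0.29 (limma, adjusted p = 0.0709) in MDA-MB-231 and 0.26 (limma, adjusted p = 0.0624) in Hs-578T. RNA does not test the loss of the protein by small edits. The paper states that the knockout was checked by qRT-PCR and Western blot. It reports far less ERK5 protein in the ERK5-ko cells of both lines than in parental cells. Directions below refer to the labels. MAP2K5, the gene of MEK5, rose by a log2 fold change of 3.77 in MDA-MB-231 MEK5DD libraries and by 0.50 in those of Hs-578T (limma, adjusted p = 3.31e-10 and 0.00492). The mesenchymal markers VIM and CD44 were at an RPKM of 1598 or more and 819 or more in every library. Of the epithelial markers, EPCAM lay between 7.08 and 25.7 RPKM across MDA-MB-231 libraries, whereas no Hs-578T library exceeded 0.0862. EPCAM was thus not absent from the former line. CDH1 reached at most 0.650 RPKM among MDA-MB-231 libraries and 1.16 among those of Hs-578T. The hormone receptors ESR1 and PGR stayed at or below 0.120 and 0.348 RPKM, while ERBB2 lay between 27.8 and 56.8 and so was not absent. The blood cell markers PTPRC and CD3E did not exceed 0.396 RPKM, the fat cell marker ADIPOQ did not exceed 0.0180, and of the endothelial markers VWF did not exceed 0.214 whereas PECAM1 reached 6.48 in Hs-578T.

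By RPKM, PLAU was the most abundant of the 5 genes in all 12 libraries. SERPINE2 had more reads than PLAU in the Hs-578T parental controls (8661 and 7960 against 6842 and 6133) and ERK5-ko libraries (12281 and 11498 against 12231 and 10376). The order there thus rests on the gene lengths. PLAU lies on chromosome 10 (GRCh38, 73909177 to 73917497, plus strand, ENSG00000122861.15). In MDA-MB-231 its RPKM was 1125 and 1210 in the parental controls, 459 and 466 in the ERK5-ko libraries and 886 and 912 in the MEK5DD libraries. In Hs-578T its RPKM was 237 and 234 in the parental controls, 368 and 339 in the ERK5-ko libraries and 350 and 341 in the MEK5DD libraries. The MDA-MB-231 parental controls were thus the highest and the Hs-578T parental controls the lowest, and both engineered groups lay between these extremes in each line. By level, PLAU ranked between 29 and 498 among the 13737 genes tested.

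PLAU RNA fell in the MDA-MB-231 libraries labelled ERK5-ko and rose in those of Hs-578T. In bulk RNA, fewer cells with the RNA and less RNA in each cell cannot be told apart. The mean RPKM of MDA-MB-231 went from 1168 ± 60.3 (SD, n = 2) to 462 ± 4.42 (SD, n = 2), a 2.53-fold fall (log2 fold change -1.33, standard error 0.0894, limma, adjusted p = 4.03e-06). In Hs-578T the mean rose from 235 ± 1.93 (SD, n = 2) to 354 ± 21.1 (SD, n = 2), a log2 fold change of 0.58 (standard error 0.0894, limma, adjusted p = 0.000416). The difference between these changes was -1.92 on the log2 scale (standard error 0.126, limma, adjusted p = 1.76e-06). PLAU also moved in opposite directions in MEK5DD libraries, where it fell by 0.38 on the log2 scale in MDA-MB-231 (limma, adjusted p = 0.00545) and rose by 0.55 in Hs-578T (limma, adjusted p = 0.00136). The Hs-578T MEK5DD call was lost with only the libraries of the groups compared (limma, adjusted p = 0.126). The change in MDA-MB-231 MEK5DD was no longer past the threshold without parental replicate 2 (log2 fold change -0.32, limma, adjusted p = 0.0655) or without MEK5DD replicate 1 (-0.36, limma, adjusted p = 0.0505).

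A second gene, C10orf55, lies across PLAU on the opposite strand and shares 916 exon bases with it. The libraries were made with a kit that marks strand, but whether strand was used in counting is not given in the sources used here, so reads of the 2 genes could not be told apart. C10orf55 was between 0.346 and 1.34 RPKM in all libraries, and PLAU exceeded it by 246-fold to 1327-fold. Its log2 fold change in MDA-MB-231 ERK5-ko was -0.90 (limma, adjusted p = 0.000298) and in Hs-578T ERK5-ko -0.03 (limma, adjusted p = 0.832).

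PLAT, the other activator, did not follow PLAU across the groups. It lies on chromosome 8 (42175233 to 42207724, minus strand, ENSG00000104368.17). In MDA-MB-231 its RPKM was 196 and 209 in the parental controls, 178 and 177 in the ERK5-ko libraries and 79.0 and 80.0 in the MEK5DD libraries. In Hs-578T its RPKM was 37.6 and 37.2 in the parental controls, 52.9 and 62.6 in the ERK5-ko libraries and 35.5 and 40.5 in the MEK5DD libraries. The MEK5DD libraries stood well below the other MDA-MB-231 groups, and in Hs-578T only the ERK5-ko libraries stood above the parental controls.

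The fall of PLAT in MDA-MB-231 MEK5DD was from 203 ± 9.05 to 79.5 ± 0.703 RPKM (SD, n = 2), 2.55-fold (log2 fold change -1.35, standard error 0.0981, limma, adjusted p = 8.70e-07). In MDA-MB-231 ERK5-ko its log2 fold change was -0.19 (95% interval -0.41 to 0.02, limma, adjusted p = 0.218), although the groups did not overlap. PLAT rose in Hs-578T ERK5-ko, from 37.4 ± 0.302 to 57.7 ± 6.84 RPKM (SD, n = 2), a log2 fold change of 0.62 (limma, adjusted p = 0.000544). In Hs-578T MEK5DD the groups overlapped and the log2 fold change was 0.02 (95% interval -0.19 to 0.24, limma, adjusted p = 0.907). The changes differed between the lines by -0.81 for ERK5-ko (limma, adjusted p = 0.000940) and by -1.37 for MEK5DD (limma, adjusted p = 2.16e-05).

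PLAUR, the uPA receptor, spanned 54.8 to 117 RPKM, a 2.13-fold range and the narrowest of the 4 genes with reads in every library. It lies on chromosome 19 (43646095 to 43670547, minus strand, ENSG00000011422.11). In MDA-MB-231 its RPKM was 87.4 and 88.0 in the parental controls, 61.1 and 67.5 in the ERK5-ko libraries and 113 and 117 in the MEK5DD libraries. In Hs-578T its RPKM was 63.3 and 54.8 in the parental controls, 69.8 and 66.7 in the ERK5-ko libraries and 85.5 and 80.1 in the MEK5DD libraries. MEK5DD libraries were thus the highest in each line, and only in MDA-MB-231 were ERK5-ko libraries below the parental controls.

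PLAUR rose in MEK5DD libraries of both lines. Its log2 fold change was 0.39 (standard error 0.0926, limma, adjusted p = 0.00555) in MDA-MB-231 and 0.49 (standard error 0.0926, limma, adjusted p = 0.00351) in Hs-578T. The Hs-578T call was lost with only the libraries of the groups compared (limma, adjusted p = 0.157). The difference between the 2 changes was -0.10 (95% interval -0.39 to 0.19, limma, adjusted p = 0.582). In ERK5-ko libraries, PLAUR fell by 0.45 on the log2 scale in MDA-MB-231 (limma, adjusted p = 0.00694). This call was lost without parental replicate 1 (limma, adjusted p = 0.0558), parental replicate 2 (limma, adjusted p = 0.0599) or ERK5-ko replicate 1 (limma, adjusted p = 0.0707). In Hs-578T ERK5-ko its log2 fold change was 0.21 (limma, adjusted p = 0.0919), and 0.0357 was the adjusted p with the replicate number as a block. Without parental replicate 1 this change was 0.32 (limma, adjusted p = 0.0393). The ERK5-ko changes differed between the lines by -0.66 (limma, adjusted p = 0.00234).

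**Figure D1:**
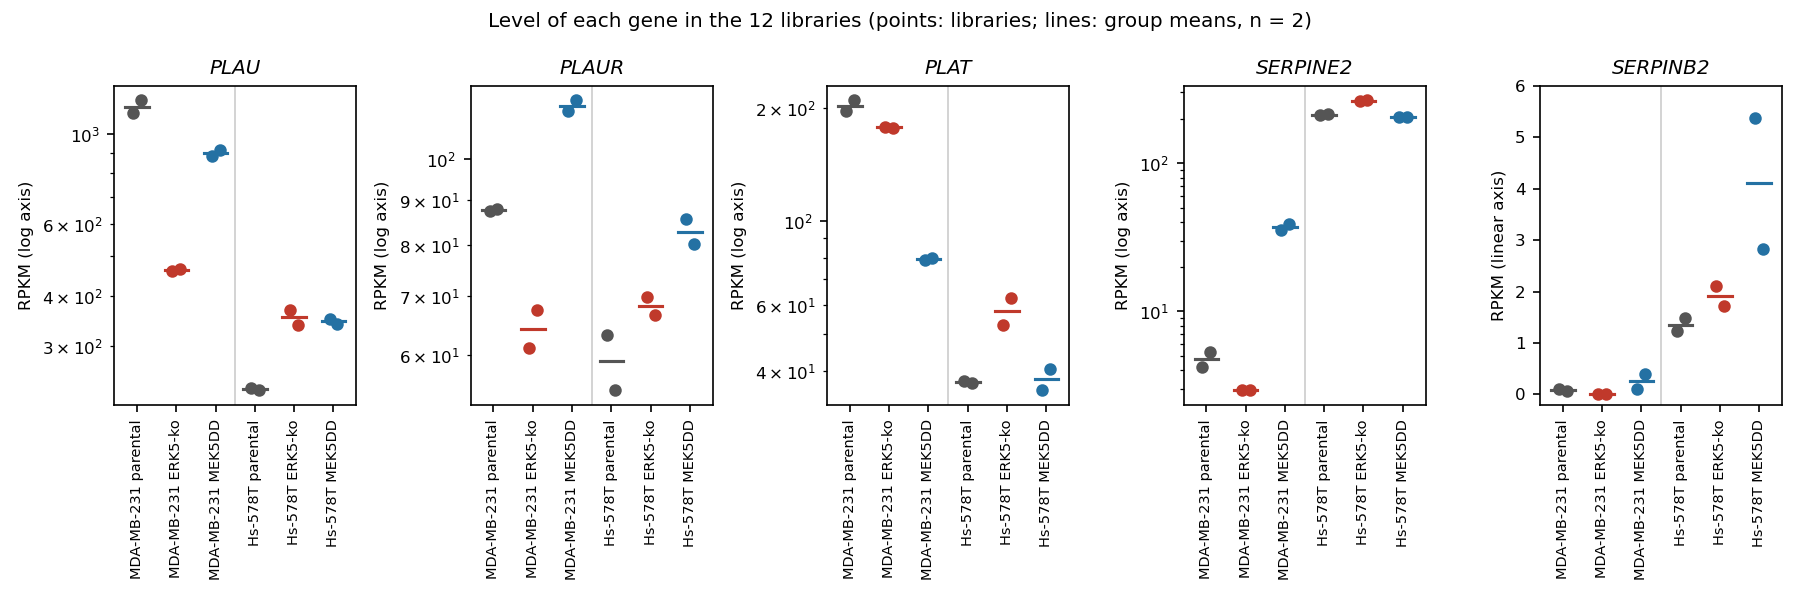
RPKM of PLAU, PLAUR, PLAT, SERPINE2 and SERPINB2 in the 12 libraries, on log axes except for SERPINB2, which has a linear axis because 2 libraries are at 0. Points are libraries and lines are group means (n = 2): PLAU was lowest among MDA-MB-231 groups in ERK5-ko (mean 462), PLAT in MEK5DD (mean 79.5), and SERPINE2 was 206 or higher in all Hs-578T groups.

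SERPINE2 separated the lines most widely. It lies on chromosome 2 (223975112 to 224039319, minus strand, ENSG00000135919.12). In MDA-MB-231 its RPKM was 4.20 and 5.30 in the parental controls, 2.94 and 2.97 in the ERK5-ko libraries and 35.2 and 38.7 in the MEK5DD libraries. In Hs-578T its RPKM was 211 and 214 in the parental controls, 261 and 265 in the ERK5-ko libraries and 206 in each of the MEK5DD libraries. Every Hs-578T library was above every MDA-MB-231 library, and within MDA-MB-231 the MEK5DD libraries stood far above the rest.

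The SERPINE2 mean in MDA-MB-231 MEK5DD, 36.9 ± 2.50 RPKM (SD, n = 2), was 7.78-fold that of the parental controls, 4.75 ± 0.779 RPKM (SD, n = 2). Its log2 fold change was 2.84 (standard error 0.101, limma, adjusted p = 3.17e-09), whereas in Hs-578T MEK5DD it was -0.05 (95% interval -0.27 to 0.18, limma, adjusted p = 0.790). The latter turned to 0.051 under median-ratio scaling. The difference between the lines was 2.89 (standard error 0.143, limma, adjusted p = 1.10e-07). In ERK5-ko libraries SERPINE2 fell by 0.59 in MDA-MB-231 (limma, adjusted p = 0.00238) and rose by 0.30 in Hs-578T (limma, adjusted p = 0.0332), and these changes differed by -0.90 (limma, adjusted p = 0.000563). The rise in Hs-578T ERK5-ko was lost without any 1 of its 4 libraries (limma, adjusted p = 0.107 and 0.0735 without parental replicates 1 and 2, and 0.0983 and 0.140 without ERK5-ko replicates 1 and 2). With only the libraries of the groups compared, the adjusted p in limma was 0.0603 for the fall in MDA-MB-231 and 0.0528 for the rise in Hs-578T.

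SERPINB2 was scarce, with no more than 128 reads in any library. It lies on chromosome 18 (63871692 to 63903890, plus strand, ENSG00000197632.8). In MDA-MB-231 it had 3 and 2 reads in the parental controls, 0 in each ERK5-ko library and 3 and 13 in the MEK5DD libraries. In Hs-578T it had 33 and 36 reads in the parental controls, 65 and 49 in the ERK5-ko libraries and 128 and 68 in the MEK5DD libraries. On the RPKM scale the Hs-578T values were 1.23 and 1.48, 2.11 and 1.72, and 5.38 and 2.82 in the same order. Each Hs-578T library was above every MDA-MB-231 library. Within Hs-578T the groups did not overlap, while 3 reads were seen in a parental and in a MEK5DD library of MDA-MB-231.

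SERPINB2 rose in Hs-578T MEK5DD by a log2 fold change of 1.26 (standard error 0.240, limma, adjusted p = 0.00360). This call was lost with only the libraries of the groups compared (limma, adjusted p = 0.153). Relative to library totals, the summed reads were 3.04-fold those of the parental controls (95% interval 2.30 to 4.06, exact and for counting error only). In Hs-578T ERK5-ko the log2 fold change was 0.38 (limma, adjusted p = 0.231). In MDA-MB-231 the counts limit any statement. The parental controls had 5 of 52507623 reads (95% interval 1.62 to 11.7, exact Poisson and for counting error only) and the ERK5-ko libraries 0 of 47535366 (0 to 3.69), and no fold is given between counts this low. The log2 fold changes fitted there were -0.22 for ERK5-ko (limma, adjusted p = 0.600) and 0.34 for MEK5DD (limma, adjusted p = 0.283). The MEK5DD changes differed between the lines by -0.91 (limma, adjusted p = 0.0514), and the replicate block gave an adjusted p of 0.0356. Without MDA-MB-231 MEK5DD replicate 2 or Hs-578T MEK5DD replicate 2 this difference was -1.20 or -1.33 (limma, adjusted p = 0.0260 and 0.00262).

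SERPINB10, another clade B serpin, lies beside SERPINB2 on the same strand, and their gene models share 547 exon bases. How such shared reads were counted is not given in the sources used here. SERPINB10 had a mean of 0.357 RPKM in Hs-578T parental controls, 0.648 in ERK5-ko and 1.29 in MEK5DD. Its log2 fold change in Hs-578T MEK5DD was 0.995 (limma, adjusted p = 0.00723), so the values of both genes in this group are uncertain.

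**Figure D2:**
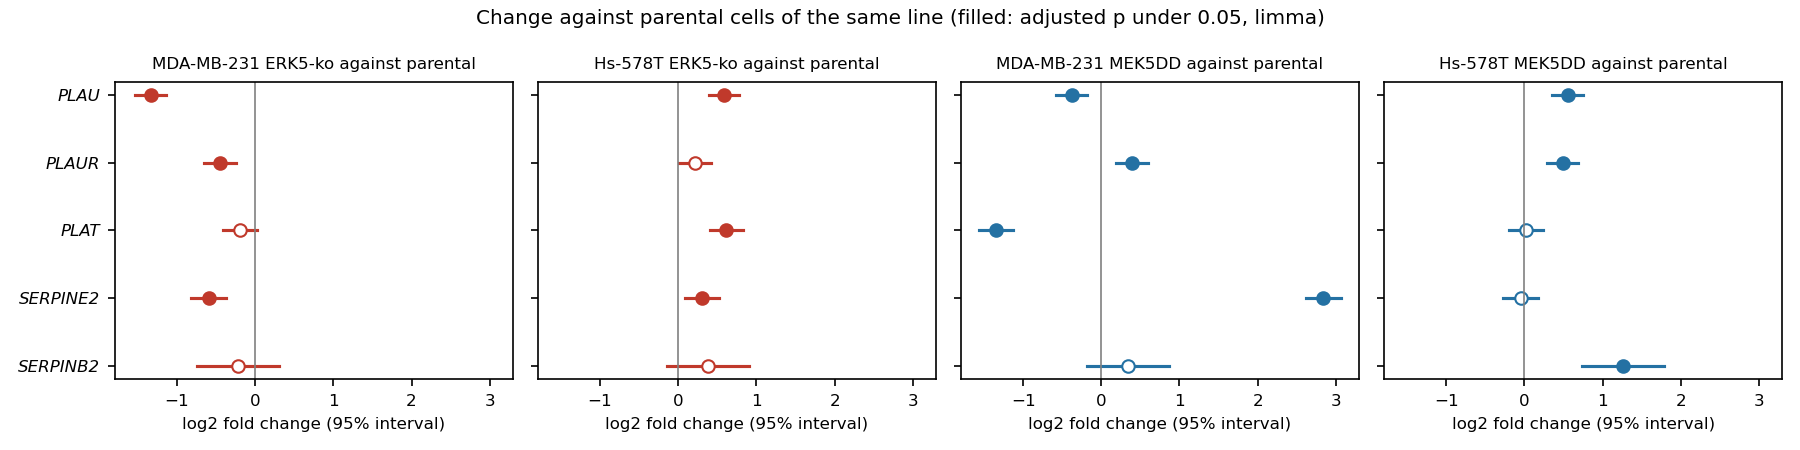
log2 fold change of the 5 genes against parental cells of the same line with 95% intervals, on the log2(RPKM + 0.5) scale, for ERK5-ko (red) and MEK5DD (blue). Filled points passed an adjusted p under 0.05: PLAU lies at -1.33 and 0.58 in the ERK5-ko panels, and SERPINE2 at 2.84 in MDA-MB-231 MEK5DD.

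The changes of the 5 genes were then read against all genes tested in each comparison. The smallest two-sided p that 2 libraries against 2 allow in an exact permutation test is 0.333, so limma borrowed the spread from all 12 libraries and all genes. In MDA-MB-231 ERK5-ko, 3 of the 5 genes passed an adjusted p under 0.05, all lower, against 17.3% of all genes tested. In Hs-578T ERK5-ko, 3 of 5 passed, all higher, against 39.4%. In MDA-MB-231 MEK5DD, 4 of 5 passed, 2 in each direction, against 41.3%, and in Hs-578T MEK5DD 3 of 5 passed, all higher, against 23.4%. With only the libraries of the groups compared, 0 of 5 passed in Hs-578T MEK5DD in limma (adjusted p = 0.126 for PLAU, 0.153 for SERPINB2 and 0.157 for PLAUR). That smaller fit passed 66 of all 13737 genes tested, 0.480%. In it 3 of 5 had an unadjusted p under 0.05, and the share of all genes at that level is not given here. For this comparison, limma voom on the recovered reads of all libraries passed 3 of 5, and 3002 of all 13737 genes tested. The ERK5-ko and MEK5DD comparisons of a line share their parental controls, so their values are given side by side and not as separate evidence.

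The 2 engineered groups of each line were also compared directly, which in Hs-578T sets libraries of the same passage labels side by side. In Hs-578T, 4 of 5 genes passed, against 50.0% of all genes tested. PLAT and SERPINE2 were higher in ERK5-ko than in MEK5DD by 0.59 (limma, adjusted p = 0.000460) and 0.35 (limma, adjusted p = 0.0137) on the log2 scale, whereas PLAUR and SERPINB2 were lower, with differences of -0.28 (limma, adjusted p = 0.0277) and -0.88 (limma, adjusted p = 0.0104). PLAU did not differ detectably, with a log2 difference of 0.03 (95% interval -0.16 to 0.23, limma, adjusted p = 0.792). Of these calls only that of PLAT held whichever library was left out. Fewer of the 5 genes passed without ERK5-ko replicate 2, ERK5-ko replicate 1 or MEK5DD replicate 1, as was so for all genes tested. With only the libraries of these 2 groups 1 gene passed, against 27.1% of all genes tested, and under median-ratio scaling the SERPINE2 difference was 0.24 (limma, adjusted p = 0.0702) and that of PLAU turned to -0.084.

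In MDA-MB-231, 4 of 5 genes passed between ERK5-ko and MEK5DD, against 55.0%. PLAT was higher in ERK5-ko by 1.16 on the log2 scale (limma, adjusted p = 1.76e-06). PLAU, PLAUR and SERPINE2 were lower, with log2 differences of -0.96, -0.84 and -3.44 (limma, adjusted p = 3.80e-06, 1.50e-05 and 3.76e-10). The SERPINE2 means thus stood 12.5-fold apart. The value of SERPINB2 was -0.56 (limma, adjusted p = 0.0665), and its adjusted p was 0.0484 with the replicate block. Without MEK5DD replicate 1 it was -0.85 (limma, adjusted p = 0.0270).

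All 5 genes differed between the parental controls of the 2 lines, against 77.4% of all genes tested, and the median of all genes in this comparison was -0.19 on the log2 scale. PLAU and PLAT were lower in Hs-578T, 4.96-fold and 5.43-fold by mean RPKM, with log2 differences of -2.31 and -2.42 (limma, adjusted p = 4.30e-10 and 6.32e-10). PLAUR was lower as well, at -0.57 (limma, adjusted p = 0.000139). The serpins went the other way, SERPINE2 by a log2 difference of 5.35 (limma, adjusted p = 1.21e-12) and SERPINB2 by 1.67 (limma, adjusted p = 5.16e-05). Median-ratio scaling, absence of a filter and quantile normalization raised the median of all genes by 0.17, 0.16 and 0.11, and none of them turned the direction of any of the 5 genes here.

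The difference between the lines was itself tested for each change. For ERK5-ko, 4 of 5 genes passed, against 39.8% of all genes tested, and for MEK5DD 3 of 5 passed, against 39.6%. PLAU, PLAT, PLAUR and SERPINE2 all had a lower value in MDA-MB-231 for ERK5-ko. For SERPINB2 the ERK5-ko difference was -0.60 (limma, adjusted p = 0.180).

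Ratios within a library do not depend on its depth. The PLAU to PLAUR ratio of RPKM was 12.9 and 13.8 in the MDA-MB-231 parental controls, 7.52 and 6.90 in ERK5-ko and 7.81 and 7.82 in MEK5DD. Both engineered MDA-MB-231 groups thus had less activator RNA for each unit of receptor RNA, in ERK5-ko with lower PLAU and in MEK5DD with higher PLAUR as well. In Hs-578T this ratio lay between 3.74 and 5.28 in all 6 libraries. The PLAU to PLAT ratio was 5.73 and 5.78 in MDA-MB-231 parental controls, 2.58 and 2.63 in ERK5-ko and 11.2 and 11.4 in MEK5DD, so the engineered groups lay on opposite sides of the controls. The PLAU to SERPINE2 ratio was 268 and 228 in MDA-MB-231 parental controls, 156 and 157 in ERK5-ko, 25.2 and 23.6 in MEK5DD, and between 1.09 and 1.70 in Hs-578T. In every library urokinase RNA exceeded that of SERPINE2 per length. No test was run on these ratios.

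**Figure D3:**
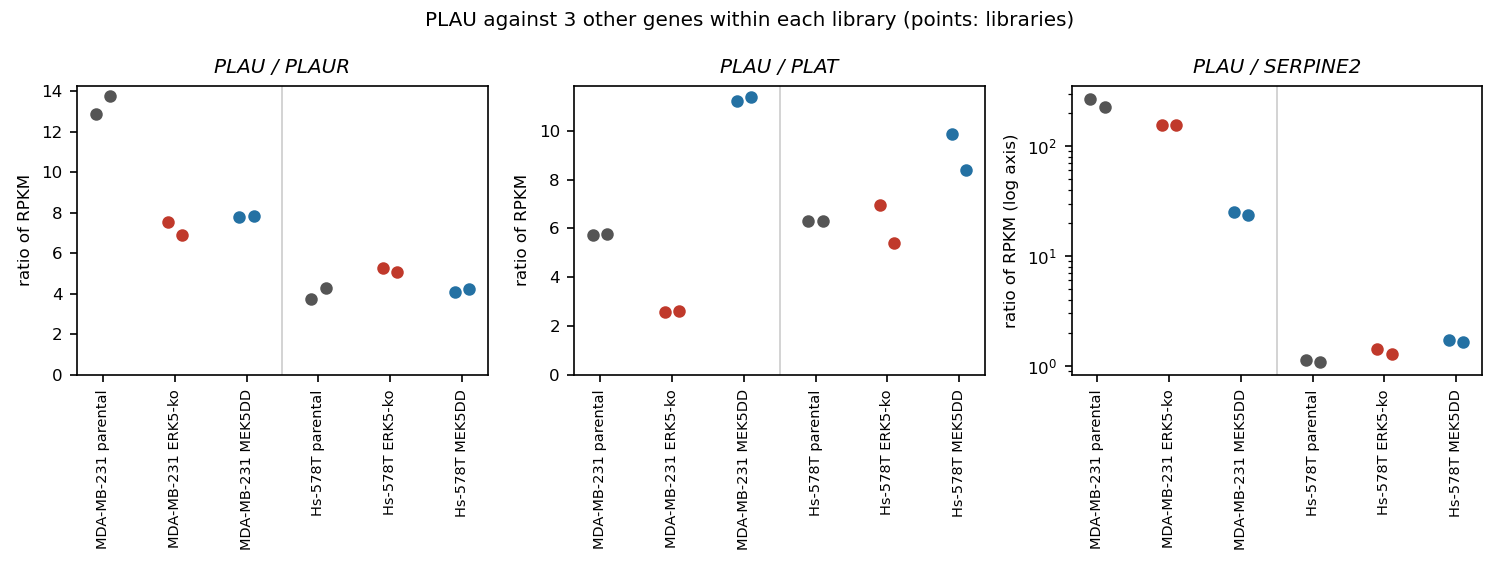
Ratio of the RPKM of PLAU to that of PLAUR, PLAT and SERPINE2 in each of the 12 libraries (points), with a log axis for SERPINE2. In MDA-MB-231 the PLAU to PLAT ratio was near 2.6 in ERK5-ko and above 11 in MEK5DD, around 5.73 and 5.78 in the parental controls.

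Promoter sequence is shown for 4 of the genes, because PLAU and PLAUR fell together in MDA-MB-231 ERK5-ko and rose together in Hs-578T MEK5DD, and SERPINE2 and SERPINB2 had the largest rises of the 5 genes. In MDA-MB-231 MEK5DD PLAU and PLAUR passed in opposite directions (log2 fold change -0.38 and 0.39), and in Hs-578T ERK5-ko only PLAU of this pair passed. With only the libraries of the groups compared, neither passed in Hs-578T MEK5DD. Each line holds the 250 bases before an annotated start, 5′ to 3′ on the strand of the gene, from RefSeq (GRCh38.p14). Capitals mark matches, on either strand, to the AP-1 motif TGANTCA, the GC box GGGCGG, which on the other strand reads CCGCCC, or the TATA box TATAAA, and no 2 matches overlapped.
PLAU: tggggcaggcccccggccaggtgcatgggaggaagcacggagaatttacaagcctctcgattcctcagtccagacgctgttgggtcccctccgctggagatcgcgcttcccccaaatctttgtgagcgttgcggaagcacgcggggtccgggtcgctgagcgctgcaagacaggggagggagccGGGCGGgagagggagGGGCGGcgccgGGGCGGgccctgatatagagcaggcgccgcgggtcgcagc
PLAUR: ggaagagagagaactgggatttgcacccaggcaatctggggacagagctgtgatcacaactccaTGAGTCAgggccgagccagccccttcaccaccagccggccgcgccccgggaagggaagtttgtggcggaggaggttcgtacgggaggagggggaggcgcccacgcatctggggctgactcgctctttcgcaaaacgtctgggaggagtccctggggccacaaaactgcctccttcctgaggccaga
SERPINE2: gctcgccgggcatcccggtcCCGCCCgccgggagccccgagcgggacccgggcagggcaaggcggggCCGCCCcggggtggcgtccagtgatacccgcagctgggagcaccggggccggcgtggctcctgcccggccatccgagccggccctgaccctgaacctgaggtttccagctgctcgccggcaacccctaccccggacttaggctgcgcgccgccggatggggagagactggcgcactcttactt
SERPINB2: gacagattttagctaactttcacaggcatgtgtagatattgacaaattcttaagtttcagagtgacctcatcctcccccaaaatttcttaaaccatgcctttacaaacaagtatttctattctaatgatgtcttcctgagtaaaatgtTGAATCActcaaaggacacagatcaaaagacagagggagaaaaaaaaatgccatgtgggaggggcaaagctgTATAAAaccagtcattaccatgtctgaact

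The PLAU window was chr10:73910882-73911131 (plus strand) and held 3 GC boxes, 66, 51 and 40 bases before the start, while another annotated PLAU start had no match. The PLAUR window, chr19:43670170-43670419 (minus strand), held an AP-1 match 186 bases before the start. The SERPINE2 window, chr2:224038641-224038890 (minus strand), held 2 GC boxes, 230 and 183 bases before the start, and a second SERPINE2 start had 1, 50 bases before it. The SERPINB2 window, chr18:63887455-63887704 (plus strand), held an AP-1 match 102 bases and a TATA box 30 bases before the start. Of 35116 windows of this length, 6.57% held an AP-1 match, 42.6% a GC box and 10.7% a TATA box. These matches are a description of letters, and factor binding was not measured.

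The other genes of the pathway were counted from lists, each read against the share of all genes tested that passed. In Hs-578T MEK5DD, 0 genes of any of the 5 lists passed in limma with only the libraries of the groups compared. That fit passed 66 of all 13737 genes tested, 0.480%. In each list 2 to 6 genes had an unadjusted p under 0.05 there, and the share of all genes at that level is not given here. Plasminogen itself was nearly absent as RNA, with PLG at 5 reads or fewer in any library, and so was prothrombin, with F2 at 4 reads or fewer. Of 16 genes for plasminogen, its cell surface receptors and the uptake of activators, 14 were tested. In MDA-MB-231 ERK5-ko, 4 of them rose and none fell (median log2 fold change 0.18, that of all genes -0.04). VTN, vitronectin, rose by 1.70, KRT8, a keratin that binds plasminogen, by 0.69, and ENO1, an enolase that also serves as a plasminogen receptor, by 0.54 (limma, adjusted p = 0.000287, 0.000724 and 0.0262). Fewer genes passed without parental replicate 2, ERK5-ko replicate 1 or ERK5-ko replicate 2, as was so for all genes tested.

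In MDA-MB-231 MEK5DD, 2 of these 14 genes rose and 4 fell (median -0.20, all genes -0.01). ST14, matriptase, a protease that activates pro-uPA, fell by 1.19, and IGF2R, a receptor that binds plasminogen and uPAR, by 1.05 (limma, adjusted p = 7.69e-06 and 0.00750). VTN was listed at 0 in both MEK5DD libraries, against a mean of 0.669 RPKM in the parental controls (limma, adjusted p = 0.000608). In Hs-578T ERK5-ko, 1 rose and 2 fell (median -0.08, all genes 0.01), with MRC2, a collagen receptor that associates with uPAR, at -1.11 and KRT8 at -0.75 (limma, adjusted p = 6.19e-05 and 0.000130), and F12, factor XII, at 0.47 (limma, adjusted p = 0.0145). More of the list passed there without Hs-578T parental replicate 1, although fewer of all genes tested did. In Hs-578T MEK5DD, 1 rose and 2 fell (median -0.08, all genes -0.08), with S100A10, the annexin A2 partner that binds plasminogen, at -0.52, ENO1 at -0.44 and KRT8 at 0.43 (limma, adjusted p = 0.00269, 0.0483 and 0.00850). Genes that passed numbered 4, 3, 6 and 3 of 14 in ERK5-ko of MDA-MB-231 and Hs-578T and in MEK5DD of the same lines, against 17.3%, 39.4%, 41.3% and 23.4% of all genes.

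Of 12 further genes listed with the inhibitors of plasmin and its activators, not all of which inhibit these proteases directly, 8 were tested. In MDA-MB-231 ERK5-ko, 3 rose and 2 fell (median 0.30, all genes -0.04), led by TFPI2, a Kunitz inhibitor of plasmin, at 1.41, with the serpins SERPINB8 and SERPINI1, neuroserpin, each at -0.54 (limma, adjusted p = 0.000245, 0.00368 and 0.0103). Fewer passed without MDA-MB-231 parental replicate 1, parental replicate 2, ERK5-ko replicate 1 or ERK5-ko replicate 2, as was so for all genes tested. In MDA-MB-231 MEK5DD, 1 rose and 5 fell (median -0.47, all genes -0.01), with TFPI2 at -1.84, SPINT1, an inhibitor of matriptase, at -1.49 and SERPINA5 at -0.65 (limma, adjusted p = 4.88e-06, 1.47e-05 and 0.00602). TFPI2 thus had a mean of 46.6 RPKM in the parental controls, 125 in ERK5-ko and 12.6 in MEK5DD. In Hs-578T ERK5-ko, 2 rose and 4 fell (median -0.35, all genes 0.01), with SPINT1 at -1.30, SERPINI1 at -1.27 and SERPINB8 at 0.68 (limma, adjusted p = 7.04e-05, 1.49e-05 and 0.000324). In Hs-578T MEK5DD, 3 rose and 1 fell (median 0.09, all genes -0.08), with SPINT1 at 0.82, TFPI2 at 0.79 and SERPINB8 at 0.62 (limma, adjusted p = 0.00344, 0.00616 and 0.00139). Genes that passed numbered 5, 6, 6 and 4 of 8 in ERK5-ko of MDA-MB-231 and Hs-578T and in MEK5DD of the same lines, against 17.3%, 39.4%, 41.3% and 23.4% of all genes.

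Thrombin, the main target of protease nexin-1, its receptors and the tissue factor pathway made a list of 11 genes, of which 8 were tested. In MDA-MB-231 all 8 fell in MEK5DD (median -0.67, all genes -0.01), and 6 rose and none fell in ERK5-ko (median 0.49, all genes -0.04). F3, tissue factor, had a mean of 336 RPKM in the parental controls, 814 in ERK5-ko (log2 fold change 1.27, limma, adjusted p = 7.97e-05) and 147 in MEK5DD (-1.19, limma, adjusted p = 2.12e-05). In ERK5-ko, PROCR, the endothelial protein C receptor, rose by 1.01, and TFPI, the tissue factor pathway inhibitor, by 0.67 (limma, adjusted p = 0.000203 and 0.00135). In MEK5DD, THBD, thrombomodulin, fell by 1.69 and GAS6, a ligand of TAM receptors, by 1.27 (limma, adjusted p = 2.72e-07 and 1.04e-06). In Hs-578T ERK5-ko, 4 rose and 3 fell (median 0.14, all genes 0.01), with F3 at 1.16, GAS6 at -0.80 and F2RL2, a thrombin receptor, at 0.52 (limma, adjusted p = 4.37e-05, 7.09e-05 and 0.0100). In Hs-578T ERK5-ko, fewer genes passed without parental replicate 1, ERK5-ko replicate 1 or ERK5-ko replicate 2, as was so for all genes tested. In Hs-578T MEK5DD, 2 rose and 3 fell (median -0.07, all genes -0.08), with F2RL2 at -1.71, F2R, the main thrombin receptor, at -0.78 and TFPI at -0.72 (limma, adjusted p = 1.24e-05, 0.000219 and 0.000702). Genes that passed numbered 6, 7, 8 and 5 of 8 in ERK5-ko of MDA-MB-231 and Hs-578T and in MEK5DD of the same lines, against 17.3%, 39.4%, 41.3% and 23.4% of all genes.

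**Figure D4:**
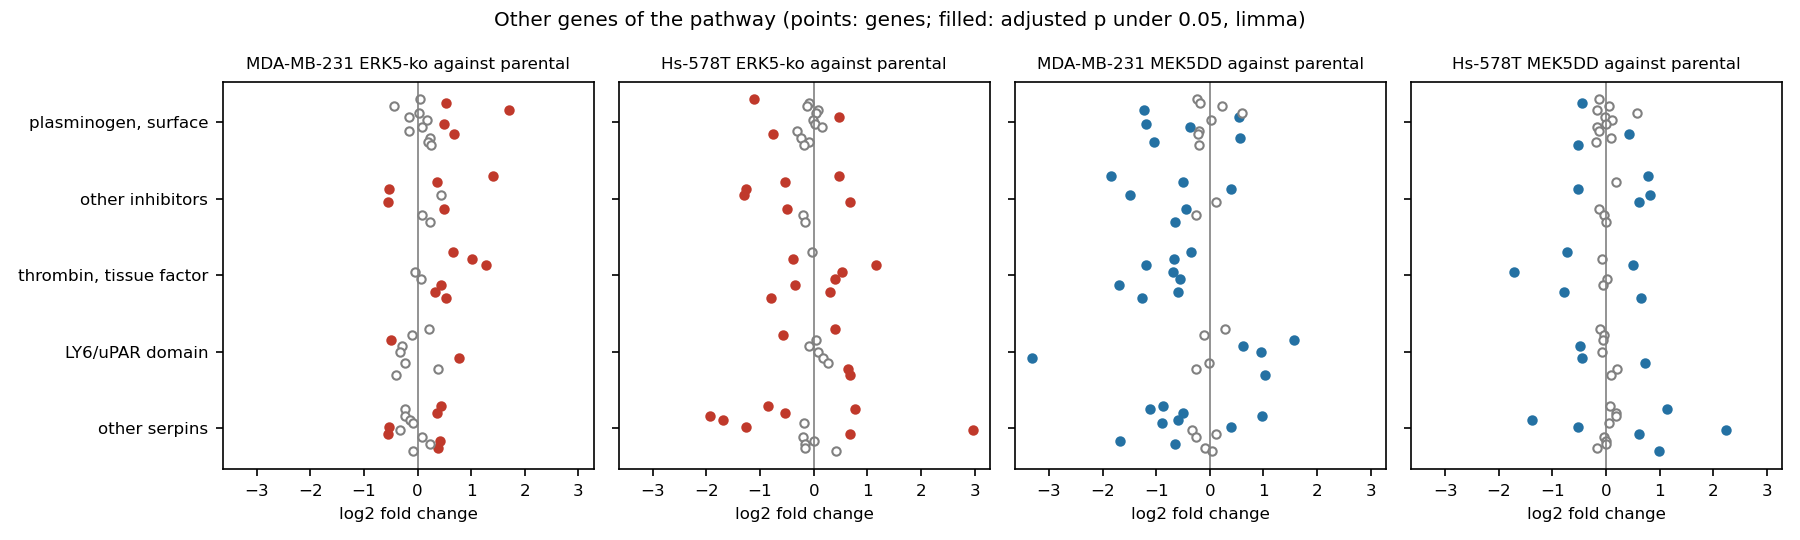
log2 fold change against parental cells of the tested genes of 5 pathway lists (points), filled where the adjusted p was under 0.05, on the log2(RPKM + 0.5) scale. In the thrombin and tissue factor list all 8 points lie below 0 in MDA-MB-231 MEK5DD (median -0.67).

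Genes that share the three-finger domain of uPAR made a list of 12, of which 9 were tested. In MDA-MB-231 ERK5-ko, LY6E rose by 0.78 and LYPD1 fell by 0.50 (limma, adjusted p = 0.00134 and 0.0405, median of the list -0.24, all genes -0.04). Fewer passed without any 1 of the 4 libraries, as was so for all genes tested. For this ERK5-ko comparison, 1 of the list passed under median-ratio scaling, quantile normalization, all gene types or limma voom. Of all genes, 2378, 2462, 2311 and 2516 passed in these fits, against 2379 in the main fit. With only the libraries of the groups compared, 4 of the list passed, and 2596 of all genes. In MDA-MB-231 MEK5DD, 4 rose and 1 fell (median 0.29, all genes -0.01). LY6E went from a mean of 154 to 14.9 RPKM (log2 fold change -3.32, limma, adjusted p = 3.55e-09), while LYPD1 rose by 1.57 and PINLYP by 1.03 (limma, adjusted p = 7.89e-06 and 0.00223). In Hs-578T ERK5-ko, 3 rose and 1 fell (median 0.17, all genes 0.01), with PINLYP at 0.68, CD177 at 0.63 and LYPD3 at -0.57 (limma, adjusted p = 0.0249, 0.0207 and 0.00523). Fewer passed without ERK5-ko replicate 2 or parental replicate 2, as was so for all genes tested. In Hs-578T MEK5DD, 1 rose and 2 fell (median -0.05, all genes -0.08), with LYPD6 at 0.74, LYPD5 at -0.48 and LY6E at -0.44 (limma, adjusted p = 0.00133, 0.0481 and 0.0218). Fewer of the list passed without parental replicate 1 or MEK5DD replicate 2. Of all genes tested, fewer passed without that parental library and more without that MEK5DD library. Genes that passed numbered 2, 4, 5 and 3 of 9 in ERK5-ko of MDA-MB-231 and Hs-578T and in MEK5DD of the same lines, against 17.3%, 39.4%, 41.3% and 23.4% of all genes.

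Of the other serpin genes, 14 were tested, some of which also stand in the list of inhibitors. In MDA-MB-231 ERK5-ko, 4 rose and 2 fell (median -0.09, all genes -0.04), with SERPINB1, an inhibitor of neutrophil proteases, at 0.44 beside SERPINB8 and SERPINI1 (limma, adjusted p = 0.00359). Fewer passed without any 1 of the 4 libraries, as was so for all genes tested. In MDA-MB-231 MEK5DD, 2 rose and 7 fell (median -0.42, all genes -0.01), with SERPINB9, the granzyme B inhibitor, at -1.68 and SERPINF1, which encodes PEDF, at 0.96 (limma, adjusted p = 1.10e-07 and 0.00227). In Hs-578T ERK5-ko, 3 rose and 5 fell (median -0.18, all genes 0.01). SERPINB7 went from 0.192 to 4.94 RPKM there (log2 fold change 2.97, limma, adjusted p = 1.40e-06), SERPINF1 fell by 1.93 and SERPING1, the C1 inhibitor, by 1.68 (limma, adjusted p = 2.58e-05 and 5.68e-05). In Hs-578T MEK5DD, 4 rose and 2 fell (median 0.07, all genes -0.08), with SERPINB7 at 2.23 and SERPING1 at -1.37 (limma, adjusted p = 3.23e-05 and 0.000621). Genes that passed numbered 6, 8, 9 and 6 of 14 in ERK5-ko of MDA-MB-231 and Hs-578T and in MEK5DD of the same lines, against 17.3%, 39.4%, 41.3% and 23.4% of all genes.

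The genes whose pattern was most like each of the 5 were ranked by Pearson's r over the 12 libraries, after each line was centred on its own mean. The libraries come from 6 groups that share parental controls, so r is a description only. PLAU was most like SEC22C and HOMER2 (r = 0.93 each) and SPRY4 (0.92). PLAT was most like GALNT1 (0.99), ANXA8L1 and LMAN1 (0.98 each). PLAUR was most like GEM and SPHK1 (0.97 each) and PDCD1LG2 (0.96). SERPINE2 was most like STOX2 (0.995), GLB1L2 and EYA1 (0.99 each). SERPINB2 was most like SERPINB10 (0.93), with which it shares exon bases, NBPF3 (0.92) and MYEOV (0.90). Among the 5 genes, PLAUR had an r of 0.73 with PLAU, 0.76 with SERPINE2 and 0.72 with SERPINB2, while PLAT had -0.60 with PLAUR, -0.80 with SERPINE2 and 0.01 with PLAU.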

How the data were processed

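The 12 RNA libraries of the MDA-MB-231 and Hs-578T lines were grouped by line and label, 2 in each of 6 groups. The authors deposited RPKM values per gene, reads scaled to gene model length and library total. The submitters' processing notes name Trimmomatic 0.32, TopHat2 2.1.1, R 3.3.1, DESeq2 1.12.4 and the build GRCh38. The counting tool, its strand setting and its treatment of overlapping genes are not given in the sources used here. Positions of the 5 genes are those of the deposited table and of GENCODE 29.

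The RPKM values were turned back into whole reads by solving for the totals of the libraries and the lengths of the genes, and 100% of values came out whole within 0.001 reads. The authors' gene lengths, not the values here, decide levels compared between genes. Intervals cover counting error only. log2(RPKM + 0.5) of 13737 protein-coding genes was fitted in R 4.3.3 with limma 3.58.1 and a variance trend, as 6 group means with 6 residual degrees of freedom, with Benjamini-Hochberg adjustment per comparison. The changes of genes with low RPKM are understated on this scale. A gene passed at an adjusted p under 0.05. The fit and the recovery were tested on simulated data. Figures were drawn with matplotlib 3.10.9 in Python 3.11.15, with pandas 2.3.3 and numpy 2.4.6 for tables and scipy 1.17.1 for intervals.

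Replicates 1 and 2 of a group carry consecutive passages. The deviations of same-numbered libraries from their group means correlated across genes at 0.107 to 0.541 in the 6 pairs of groups within a line. Since every one was over 0.1, the numbers were taken to pair the libraries, and values from a fit with replicate blocks are given where they change a call. All other p values and shares of all genes come from fits without blocks. With blocks, 3441, 6532, 6612 and 4273 genes passed in ERK5-ko of MDA-MB-231 and Hs-578T and in MEK5DD of the same lines. Without blocks, 2379, 5413, 5673 and 3213 did. Named genes are the 5 genes, MAPK7, MAP2K5, overlapping genes, the 3 most like each of the 5, and the 3 largest changes among passing genes of each list against parental controls. 1 gene that this rule reaches is not reported here. The 5 genes and the lists were chosen with earlier results of these data known. Alternatives changed the pseudocount, filter, scaling, gene types, libraries fitted, block, fold threshold, tool and replicates kept, and 1, the fold by mean RPKM, was added after seeing the data.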

Additional observations from a re-analysis of the deposited data

Results flagged for a closer look

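Of the 10 differences between the lines that were tested for the 5 genes, 7 passed an adjusted p under 0.05 in limma. Of all genes tested, 39.8% passed for ERK5-ko and 39.6% for MEK5DD. Each is the log2 fold change against parental controls in MDA-MB-231 minus that in Hs-578T. For ERK5-ko the difference was -1.92 for PLAU (adjusted p = 1.76e-06), -0.90 for SERPINE2 (adjusted p = 0.000563), -0.81 for PLAT (adjusted p = 0.000940) and -0.66 for PLAUR (adjusted p = 0.00234). For MEK5DD it was 2.89 for SERPINE2 (adjusted p = 1.10e-07), -1.37 for PLAT (adjusted p = 2.16e-05) and -0.93 for PLAU (adjusted p = 0.000172). PLAU and SERPINE2 passed in opposite directions in the ERK5-ko libraries of the lines, as did PLAU in those of MEK5DD. The SERPINE2 call in Hs-578T ERK5-ko was lost without any 1 of its 4 libraries. With only the libraries compared, SERPINE2 had adjusted p = 0.0603 in MDA-MB-231 ERK5-ko and 0.0528 in Hs-578T ERK5-ko (limma). PLAU in Hs-578T MEK5DD then had adjusted p = 0.126 (limma). The PLAU call in MDA-MB-231 MEK5DD was lost without parental replicate 2 or MEK5DD replicate 1. MAP2K5 rose by 3.77 on the log2 scale in MDA-MB-231 MEK5DD and by 0.50 in Hs-578T MEK5DD, and its part in the MEK5DD differences was not tested.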

How the results depend on the processing

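The log2 fold changes of the 5 genes in 9 comparisons gave 45 values, and 670 values under alternatives, of which 625 kept their direction and their side of the threshold, 25 lost the call, 15 gained it and 5 turned direction. Under median-ratio scaling, SERPINE2 in Hs-578T MEK5DD turned to 0.051 and PLAU in Hs-578T ERK5-ko against MEK5DD to -0.084, neither called in any of the fits. With replicates left out in turn, the difference of PLAUR between the MEK5DD changes of the lines lay between -0.20 and 0.0045, PLAU in Hs-578T ERK5-ko against MEK5DD between -0.029 and 0.093, and PLAT in Hs-578T MEK5DD between -0.072 and 0.11. The number of the 5 genes that passed in Hs-578T ERK5-ko against MEK5DD then lay between 1 and 4. With only the libraries of the groups compared, a fit with fewer samples, 1 of the 5 genes passed in Hs-578T ERK5-ko against MEK5DD and 0 in Hs-578T MEK5DD against parental. In these fits 3719 and 66 of all 13737 genes passed. SERPINB2 then passed in MDA-MB-231 ERK5-ko (limma, adjusted p = 0.0481) and in the ERK5-ko difference between the lines (limma, adjusted p = 0.0187). With the fold thresholds of the study, above 1.5 or below 0.5 on the fitted scale, 1 gene passed in MDA-MB-231 ERK5-ko, 1 in Hs-578T ERK5-ko, 2 in MDA-MB-231 MEK5DD, 1 in Hs-578T MEK5DD, 2 in MDA-MB-231 ERK5-ko against MEK5DD and 1 in that comparison of Hs-578T, against 3.87%, 12.6%, 13.9%, 4.38%, 23.6% and 19.3% of all genes. With the fold from mean RPKM, chosen after seeing the data, PLAU in Hs-578T ERK5-ko (1.502) and SERPINB2 in Hs-578T ERK5-ko against MEK5DD (0.467) passed as well, 2 genes in each, and the other counts were as before. Under the replicate block, calls were gained for PLAUR in Hs-578T ERK5-ko (log2 fold change 0.21) and SERPINB2 in MDA-MB-231 ERK5-ko against MEK5DD (-0.56) and in the MEK5DD difference (-0.91), and no other call changed. SERPINB2 in MDA-MB-231 ERK5-ko against MEK5DD was -1.68 with a pseudocount of 0.1 and -3.69 with limma voom on recovered reads (adjusted p = 0.00308 and 0.00559), its ERK5-ko libraries being at 0 reads. Where a call changed, the cause was not tested.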
